A study of Mus musculus with 2 samples.

Results

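The cytochrome P450 genes of families 1 to 4 code for haem enzymes that oxidise drugs, toxins, steroids, bile acids and fatty acids. They were taken as all genes whose symbol has Cyp, a family number of 1 to 4, a subfamily letter and a gene number, with at least 1 protein-coding transcript. The rule gave 75 of 55536 annotated genes, of which 3 belong to family 1, 48 to family 2, 7 to family 3 and 17 to family 4. Another 6 protein-coding genes of these families have a longer symbol (Cyp2ab1, Cyp3a41a, Cyp3a41b, Cyp4a12a, Cyp4a12b and Cyp4a30b) and fell outside the rule; their levels were 1.0 TPM or less in both libraries.

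Total RNA was sequenced from adrenal glands of male B6CASTF1/J mice, an F1 hybrid of a laboratory strain and a wild-derived strain, aged 14 days, untreated as far as the labels say. A single group was sampled, as biological replicate 2 and biological replicate 1, each from 300 ng of RNA with a directional library kit and added spike-in RNAs. The labels name pools of males, and they are at odds over whether both libraries share a pool number, so it is not certain that the libraries come from different mice. Since all mice form 1 group, nothing was tested and no p-value is printed. The libraries held 36260745 expected counts (replicate 2) and 32963248 (replicate 1). Levels are TPM, a share of all transcripts that is adjusted for gene length; an SD is over n = 2.

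P450 enzymes hold a haem group through a conserved cysteine and take electrons from partner proteins, in the endoplasmic reticulum mainly from P450 oxidoreductase (Por). The adrenal cortex is best known for other P450 families, the mitochondrial and microsomal steroid hydroxylases such as Cyp11a1 and Cyp21a1. Families 1 to 4 are best known from liver, where receptors such as Ahr, Nr1i2, Nr1i3 and Ppara switch them on, and some members work mainly in lung, kidney, vessels or skin.

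The stretch around the haem-binding cysteine shows how far the genes differ at the part of the enzyme they share. Each line holds 30 coding bases, 5′ to 3′, of the highest member of each family, of Cyp2e1, the second highest gene, and of 2 pairs of close paralogs, from GENCODE transcripts of the mm10 build; the capitals mark the codon of the cysteine.
Cyp2f2: ttttcggctggacgtcgactgTGTctggga
Cyp2e1: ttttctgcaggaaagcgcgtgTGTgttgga
Cyp1b1: ttctcagtgggcaaacggaggTGCatcggt
Cyp3a11: tttgggaatggacccaggaacTGCcttggc
Cyp4f13: ttctcagcggggaccaggaacTGCatagga
Cyp2a5: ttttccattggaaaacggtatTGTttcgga
Cyp2a4: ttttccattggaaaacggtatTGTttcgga
Cyp2c68: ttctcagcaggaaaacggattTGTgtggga
Cyp2c40: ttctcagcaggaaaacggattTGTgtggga

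Over these 30 bases Cyp2f2 differed from Cyp2e1 at 9 positions, from Cyp3a11 at 14 and from Cyp1b1 and Cyp4f13 at 15 each. Cyp2a5 and Cyp2a4 had 0 differences, and so did Cyp2c68 and Cyp2c40, so reads of the reference sequence from within this stretch cannot tell either pair apart. In Cyp2f2 the stretch lies on chromosome 7, plus strand, split between exon 9 (27132606 to 27132615) and exon 10 (27133216 to 27133235) of 10. In Cyp3a11 it lies within exon 12 of 13 on chromosome 5, minus strand (145858805 to 145858834), and in Cyp1b1 within the last of 3 exons on chromosome 17, minus strand (79710309 to 79710338). In Cyp4f13 it is split between exons 12 and 13 of 13, on chromosome 17, minus strand (32925324 to 32925340 and 32924942 to 32924954). The cysteine pattern was found in a coding transcript of 73 of the 75 members; Cyp2s1 and Cyp3a59 were those without it in the annotated coding sequence.

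Few of the 75 genes were well expressed. 16 members (21.3%) reached 1 TPM in both libraries, against 54.2% of the 22015 nuclear protein-coding genes. The libraries differed widely in these genes, since 41 members reached 1 TPM in replicate 2 and 17 in replicate 1. Of all nuclear protein-coding genes, 56.1% did so in replicate 2 and 56.6% in replicate 1. A mean of at least 1 TPM was found for 37 members and of at least 5 TPM for 15, and 9 members (Cyp2b23, Cyp2c65, Cyp2c66, Cyp2j7, Cyp2j11, Cyp2j13, Cyp2t4, Cyp2w1 and Cyp4a29) had 0 counts in both. All members together made up 704.1 TPM in replicate 2, against 308.1 TPM in replicate 1, or 0.253% (replicate 2) and 0.112% (replicate 1) of what nuclear protein-coding genes held in sum.

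**Figure D1:**
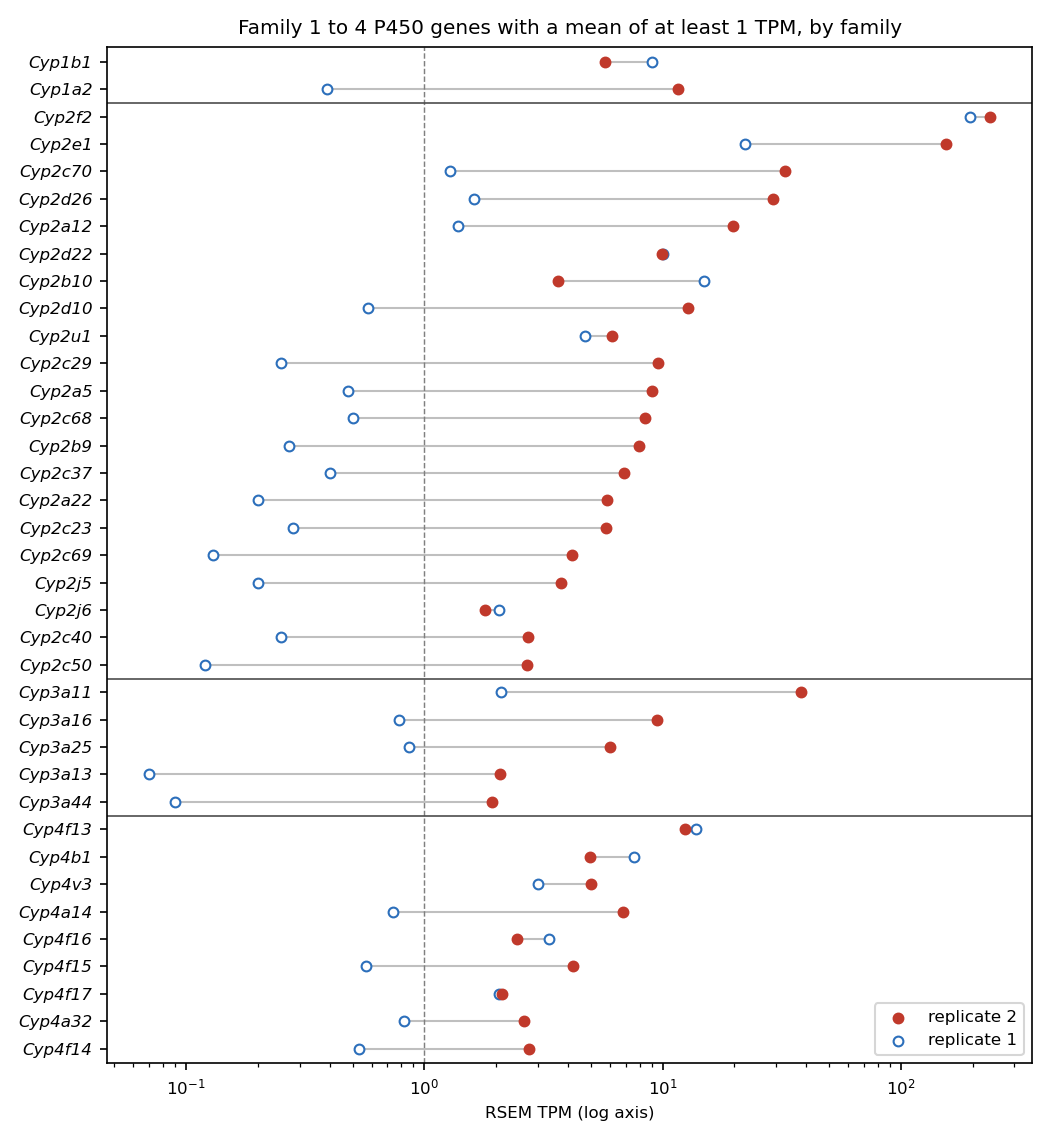
TPM (log axis) of the 37 members with a mean of at least 1 TPM, 1 row a gene, ordered by mean within families 1, 2, 3 and 4, which horizontal lines separate; filled points are replicate 2, open points replicate 1, and the dashed line marks 1 TPM. Cyp2f2 lies at 236.73 TPM in replicate 2, against 195.28 TPM in replicate 1, while 21 genes lie under 1 TPM in replicate 1 only.

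Cyp2f2, known for the epoxidation of naphthalene in the club cells of the mouse airway and also made by hepatocytes around the portal vein, was the highest member. It had 236.73 TPM (14835 counts) in replicate 2, against 195.28 TPM (11276 counts) in replicate 1, a mean of 216 ± 29.3 TPM, and ranked 178th among nuclear protein-coding genes by mean. The ratio was 1.21-fold. Replicate 2 was higher, and the deposited credibility bounds of TPM, whose level is not given, did not overlap. They were 228.8 to 236.6 TPM in replicate 2 and 188 to 195.4 TPM in replicate 1. The replicate 2 level lay just above its own upper bound. Such bounds are set within 1 library, so here and below they do not measure the spread between mice. A single coding transcript carried 99.3% of the gene's TPM in replicate 2 and 99.1% in replicate 1. The gene lies on chromosome 7 (27119909 to 27133660, plus strand), and each of its 31-base words is found in no other gene's transcripts. The club cell markers Scgb1a1 and Scgb3a2 were near 0: Scgb1a1 had 1.19 TPM (16 counts) in replicate 2 and 0 in replicate 1, and Scgb3a2 had 0.25 TPM (4 counts) in replicate 2 and 0 in replicate 1. Cyp2f2 made up 33.6% of the members' TPM in replicate 2 and 63.4% in replicate 1.

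Cyp2e1, which oxidises ethanol and paracetamol and is strong in the hepatocytes around the central vein, came second in both libraries. It had 154.76 TPM (9203.25 counts) in replicate 2, against 22.11 TPM (1204.14 counts) in replicate 1, 7-fold higher in replicate 2. Its bounds lay far apart, 148.8 to 155.2 TPM in replicate 2 and 20.56 to 23.17 TPM in replicate 1. On the log2 scale the level of Cyp2f2 exceeded that of Cyp2e1 by 0.61 in replicate 2 and by 3.14 in replicate 1. The order of the genes by mean TPM is therefore loose: of the 36 pairs of neighbours among the 37 members, 1 pair, Cyp2f2 over Cyp2e1, had both libraries of the higher gene above both of the lower.

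The members that follow fall into those within 2-fold between the libraries and those beyond it. Cyp4f13, of the fatty acid hydroxylases of family 4, had 12.46 TPM in replicate 2, against 13.82 TPM in replicate 1 (13.1 ± 0.96). Cyp2d22 had 9.98 TPM in replicate 2, against 10.08 TPM in replicate 1. For both genes the credibility bounds of the libraries overlapped, as they did for Cyp4f16, Cyp4f17 and Cyp2j6. Cyp2u1, a hydroxylase of long-chain fatty acids, had 6.12 TPM in replicate 2, against 4.73 TPM in replicate 1, a ratio of 1.29-fold with bounds that did not overlap. Cyp4v3, the mouse counterpart of the human gene mutated in Bietti crystalline dystrophy, had 5.01 TPM in replicate 2, against 3.01 TPM in replicate 1, also with bounds apart.

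Among the 37 members that averaged 1 TPM or more, 3 were higher in replicate 1 with bounds apart, beside 11.6% of all genes. Below that mean the same held for Cyp2b13 (0.48 TPM in replicate 2, 0.91 TPM in replicate 1) and Cyp4f18. Cyp1b1, which oxidises oestrogens and retinoids in many stromal cells, had 5.71 TPM in replicate 2, against 9.03 TPM in replicate 1. Cyp4b1, a lung-rich enzyme of family 4, had 4.98 TPM in replicate 2, against 7.61 TPM in replicate 1. Cyp2b10, the best known target of the receptor Nr1i3 (CAR) in mouse liver, had 3.64 TPM (235.93 counts) in replicate 2, against 14.89 TPM (882.99 counts) in replicate 1, 4.09-fold higher in replicate 1. It stood 28th among the members in replicate 2 and at place 3 in replicate 1. A single coding transcript carried 100% of its TPM in replicate 2 and 99.1% in replicate 1. Other markers were higher in replicate 1 too: all 3 lymphocyte markers (Ptprc, Cd79a, Cd3e) summed to 4.04 TPM in replicate 2, against 29.12 TPM in replicate 1, and the smooth muscle markers Acta2, Myh11 and Rgs5 to 47.02 TPM in replicate 2, against 73.51 TPM in replicate 1. Their part in the level of Cyp2b10, Cyp1b1 and Cyp4b1 was not tested.

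Most of the remaining well-expressed members were many times higher in replicate 2. Cyp3a11, the main drug- and steroid-oxidising Cyp3a enzyme of adult mouse liver, had 38.26 TPM (3064.28 counts) in replicate 2, against 2.10 TPM (154.93 counts) in replicate 1, 18.2-fold higher in replicate 2. Cyp2c70, which makes muricholic bile acids in the mouse, had 32.75 TPM in replicate 2, against 1.28 TPM in replicate 1, 25.6-fold. Cyp2d26 had 29 TPM in replicate 2, against 1.61 TPM in replicate 1, 18-fold. In each of these genes the libraries stood far apart, with at least 68 counts in replicate 1. Cyp2a12, a steroid hydroxylase of mouse liver, had 19.66 TPM in replicate 2, against 1.39 TPM in replicate 1. Cyp2d10 had 12.74 TPM in replicate 2, against 0.58 TPM in replicate 1. Cyp1a2, which clears caffeine and is induced through the receptor Ahr, had 11.62 TPM (762.02 counts) in replicate 2, against 0.39 TPM (22 counts) in replicate 1, 29.8-fold, the largest ratio among the 15 genes that averaged 5 TPM or more. Its neighbour Cyp1a1, induced by Ahr in many tissues, had 0.10 TPM in replicate 2, against 0.01 TPM in replicate 1. Cyp3a16, known from fetal and newborn mouse liver, had 9.51 TPM in replicate 2, against 0.78 TPM in replicate 1, 12.2-fold.

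Of the 37 members that averaged 1 TPM or more, 26 exceeded 2-fold with replicate 2 higher and 1 was over 2-fold higher in replicate 1. Of the 12535 nuclear protein-coding genes with that mean, 3.37% were over 2-fold higher in replicate 2 and 2.52% over 2-fold higher in replicate 1. The bounds lay apart with replicate 2 higher in 29 of the 37 members (8.9% of all genes) and with replicate 1 higher in 3 (11.6% of all genes). These counts do not describe the members as a whole. A gene under 1 TPM in replicate 1 can reach the mean only by being high in replicate 2, and that holds for 21 of the 37, each of them over 2-fold higher. Among the 17 members that reached 1 TPM in replicate 1, a limit chosen after the values were seen, 5 were over 2-fold higher in replicate 2 (Cyp2e1, Cyp3a11, Cyp2c70, Cyp2d26 and Cyp2a12), against 1.6% of 12470 genes so filtered. In the other direction 2 of the 17 were over 2-fold higher in replicate 1 (Cyp2b10 and Cyp4f18), against 3.28% of the genes, and 10 lay within 2-fold. This limit leans the other way: Cyp4f18, with a mean under 1 TPM, passed it only through replicate 1, where it is high. For the 17 the median log2 ratio was 0.04, against -0.08 for all genes under the same limit.

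By family, the ratio of summed levels ran from 1.34-fold to 14.7-fold. Family 3 had 58.89 TPM in replicate 2, against 4.02 TPM in replicate 1. Family 2 had 581.99 TPM in replicate 2, against 260.54 TPM in replicate 1; without Cyp2f2 these sums were 345.26 TPM in replicate 2, against 65.26 TPM in replicate 1. Family 1 had 17.43 TPM in replicate 2, most of it from Cyp1a2, and 9.43 TPM in replicate 1, nearly all from Cyp1b1. Family 4, the family with the most even sum, had 45.80 TPM in replicate 2, against 34.07 TPM in replicate 1.

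The members were also grouped by where general textbook knowledge places them; no source was consulted for the lists, and they were made with earlier results of these data known. 33 are placed mainly in hepatocytes, 18 widely or outside liver, and 24 were put on neither list. Of the hepatocyte members, 26 reached 1 TPM in replicate 2 and 6 in replicate 1, beside 56.1% (replicate 2) and 56.6% (replicate 1) of all genes. Of these 6, Cyp2b10 was higher in replicate 1 and 5 were over 2-fold higher in replicate 2, against the 1.6% of all genes under that limit. A mean of at least 1 TPM was reached by 22 hepatocyte members besides Cyp2b10, with ratios of 5.21-fold to 38.3-fold, but 17 of them passed only through replicate 2 and so had to differ. Summed, the 33 had 397.70 TPM in replicate 2, against 51.93 TPM in replicate 1. Of the 18 members placed widely or outside liver, 8 reached 1 TPM in replicate 2 and 9 in replicate 1, beside the same shares of all genes. Of these 9, 0 were over 2-fold higher in replicate 2 and 1, Cyp4f18, was over 2-fold higher in replicate 1. The difference between the lists was not tested. The 18 summed to 278.17 TPM in replicate 2, against 242.01 TPM in replicate 1, most of it Cyp2f2, which hepatocytes make as well. Among the 24 on neither list, 6 averaged 1 TPM or more, and they were mixed. Cyp2d22 and Cyp4f17 lay within 2-fold, and Cyp4a32 had 2.61 TPM in replicate 2, against 0.82 TPM in replicate 1. Cyp3a13 (2.08 TPM in replicate 2, 0.07 TPM in replicate 1), Cyp2c23 (5.76 TPM in replicate 2, 0.28 TPM in replicate 1) and Cyp2j5 (3.74 TPM in replicate 2, 0.20 TPM in replicate 1) were 18.7-fold to 29.7-fold higher in replicate 2, each with under 1 TPM in replicate 1.

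Markers of hepatocytes moved with these members. All 8 (Alb, Ahsg, Trf, Apoa1, Ttr, Hpx, Serpina1a and Fgb) were 14.2-fold to 21-fold higher in replicate 2, with sums of 6244.62 TPM in replicate 2, against 372.95 TPM in replicate 1; Alb alone had 3071.69 TPM in replicate 2, against 172.53 TPM in replicate 1. The adrenal cortex markers Star, Cyp11a1, Hsd3b1, Cyp21a1 and Nr5a1, which define the labelled tissue, were high and alike, with 5821.26 TPM in replicate 2, against 5269.67 TPM in replicate 1. Kidney tubule markers summed to 0.68 TPM in replicate 2, against 0.92 TPM in replicate 1, with Umod and Slc12a1 at 0 in both. The adipocyte markers Fabp4, Ucp1, Cidea, Plin1 and Adipoq were also high and alike. They summed to 2845.35 TPM in replicate 2, against 2803.20 TPM in replicate 1, with 0 of them over 2-fold apart. The part of adipocyte RNA in the members' levels was not tested. Of the 26 members over 2-fold higher in replicate 2, 7 had a ratio within the range of the 8 hepatocyte markers, 10 a larger one and 9 a smaller one. However, 21 of these 26 reached the mean of 1 TPM only through replicate 2. Replicate 2 thus had to be higher in each, by at least an amount that the limit sets. Of the 5 that reached 1 TPM in replicate 1, Cyp3a11 and Cyp2d26 lay within the range. Cyp2c70 lay above it, and Cyp2e1 and Cyp2a12 lay below it. The part of hepatocyte RNA in the members' ratios was not tested, and in bulk tissue fewer cells of a type and less RNA per cell cannot be told apart.

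**Figure D2:**
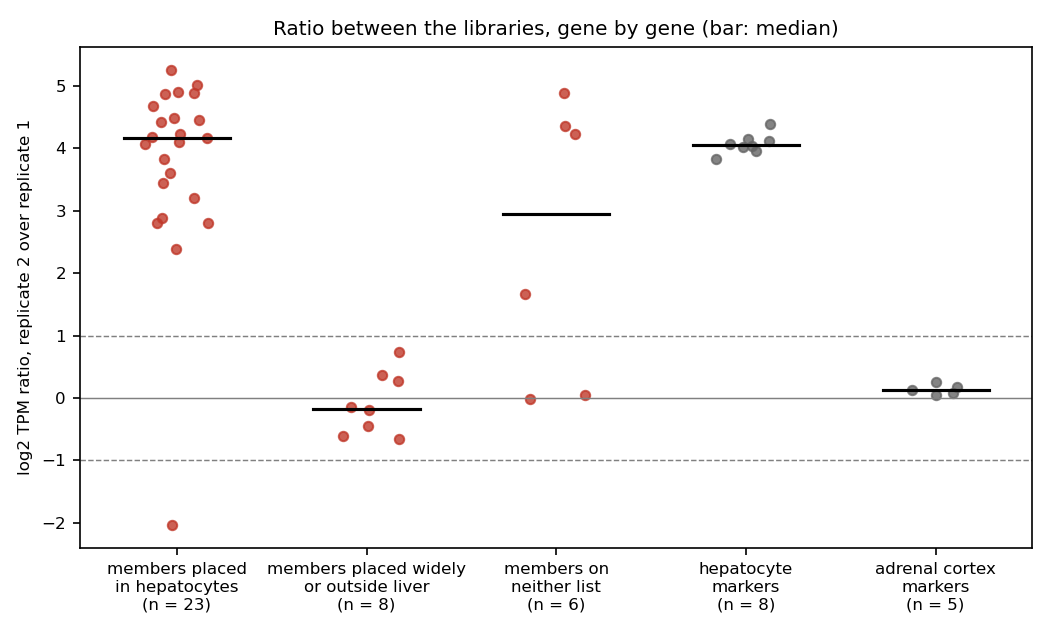
Log2 TPM ratio of replicate 2 over replicate 1, 1 point a gene with a jitter across, for the members with a mean of at least 1 TPM in 3 textbook groups and for the markers of hepatocytes and adrenal cortex; bars are medians and dashed lines mark 2-fold. The 8 widely or extrahepatically placed members lie between the dashed lines, and Cyp2b10 is the single hepatocyte member below 0; 17 of the hepatocyte members shown reached the mean only through replicate 2.

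Members with the largest ratios mostly had few counts in replicate 1. Cyp2c29, an epoxygenase of arachidonic acid, had 576 counts (9.57 TPM) in replicate 2 and 14 counts (0.25 TPM) in replicate 1, 38.3-fold, the largest TPM ratio among the 37. Cyp2c69 followed with 4.18 TPM in replicate 2, against 0.13 TPM in replicate 1, and Cyp2b9 had 7.99 TPM in replicate 2, against 0.27 TPM in replicate 1. Cyp2a22, Cyp2c50 and Cyp3a44 were 21.3-fold to 29.2-fold higher in replicate 2. Cyp2c40 had 161.28 counts in replicate 2 and 2 counts in replicate 1. Per library total, with counts rounded to whole numbers, this is a ratio of 73.2. The exact 95% interval of 19.9 to 609 covers counting error only. The TPM ratio of Cyp2c40 was 10.9-fold. RSEM placed the replicate 2 level (2.72 TPM) mostly on the coding transcript of 1803 bases and all of the replicate 1 level (0.25 TPM) on a retained-intron transcript of 347 bases. Cyp2a4, just under the limit with a mean of 0.965 TPM, had 110.59 counts in replicate 2 and 2.39 counts in replicate 1. From rounded counts per library total the ratio was 50.5 (13.6 to 422), and by TPM it was 47.25-fold. Only 41.9% of the 31-base words of Cyp2a4 are found in no other gene, so its single values are uncertain. Just inside the limit stood Cyp3a44, with a mean of 1.005 TPM.

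Many members lie in tandem clusters, here taken as genes less than 1000000 bases apart, and clusters differed in how alike their genes were. The chromosome 7 cluster (25802475 to 27158668) holds 13 members. Cyp2f2 had 1.21-fold more TPM in replicate 2, while the adjacent Cyp2a12, Cyp2a22 and Cyp2a5 were 14.1-fold, 29.2-fold and 18.8-fold higher in replicate 2. At the other end of the same cluster Cyp2s1 had 0.79 TPM in replicate 2, against 0.87 TPM in replicate 1, and Cyp2b10 was higher in replicate 1. The chromosome 19 cluster (39007019 to 40187333) holds 14 Cyp2c genes, many of them epoxygenases or steroid hydroxylases of liver. They summed to 68.64 TPM in replicate 2, against 2.98 TPM in replicate 1. Of the 14, 7 reached 1 TPM in replicate 2 and 1, Cyp2c70, in replicate 1, beside 56.1% (replicate 2) and 56.6% (replicate 1) of all genes. In the Cyp4f cluster of chromosome 17, Cyp4f13, Cyp4f16 and Cyp4f17 lay within 2-fold, whereas Cyp4f15 (4.2 TPM in replicate 2, 0.57 TPM in replicate 1) and Cyp4f14 (2.76 TPM in replicate 2, 0.53 TPM in replicate 1) were higher in replicate 2. In the cluster of chromosome 4 with Cyp4b1, the Ppara target Cyp4a14 had 6.82 TPM in replicate 2, against 0.74 TPM in replicate 1, 9.22-fold, and Cyp4x1 was near 0, at 0.02 TPM in replicate 2, against 0.07 TPM in replicate 1.

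**Figure D3:**
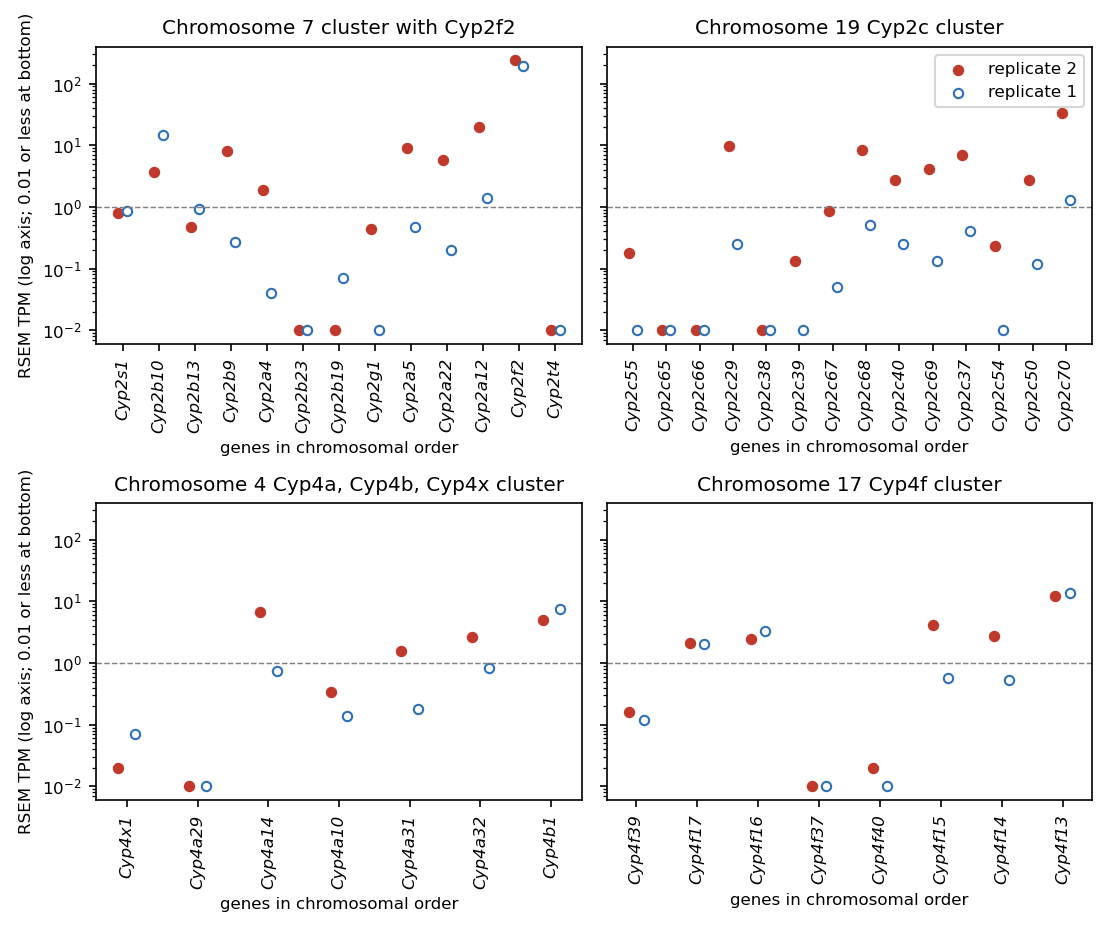
TPM (log axis, values of 0.01 or less drawn at 0.01) of the members of 4 clusters in chromosomal order; filled points are replicate 2, open points replicate 1, the dashed line 1 TPM. In the chromosome 7 cluster Cyp2f2 stands at 236.73 TPM in replicate 2, against 195.28 TPM in replicate 1 beside Cyp2a12 at 19.66 TPM in replicate 2, against 1.39 TPM in replicate 1.

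Further members were low. Cyp2r1, the vitamin D 25-hydroxylase, had 0.71 TPM in replicate 2, against 0.48 TPM in replicate 1. Cyp2g1, an enzyme of the olfactory mucosa, had 14 counts in replicate 2 and 0 in replicate 1. Cyp4f18, which inactivates leukotriene B4 in mouse neutrophils, had 0.29 TPM (14 counts) in replicate 2, against 1.06 TPM (39 counts) in replicate 1; the leukocyte gene Ptprc had 1.92 TPM in replicate 2, against 14.71 TPM in replicate 1, and its part in this ratio was not tested. Cyp2d9 had 1.17 TPM in replicate 2, against 0.17 TPM in replicate 1.

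The promoters of the highest member and of the well-expressed member with the largest ratio show the letters upstream of a gene within 2-fold between the libraries and of one far beyond it. They run from 250 bases before the start to 50 after it, 5′ to 3′ on the gene's strand, from RefSeq on GRCm38.p6, the same assembly as mm10. Cyp2f2 is at chr7:27119705-27120004, plus strand, and Cyp1a2 at chr9:57683606-57683905, minus strand; capitals mark the motif found.
Cyp2f2: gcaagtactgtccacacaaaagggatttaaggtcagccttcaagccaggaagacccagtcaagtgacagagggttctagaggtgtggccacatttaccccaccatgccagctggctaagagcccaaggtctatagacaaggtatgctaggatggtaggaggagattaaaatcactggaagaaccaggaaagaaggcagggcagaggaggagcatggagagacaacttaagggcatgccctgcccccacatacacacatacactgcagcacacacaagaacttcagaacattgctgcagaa
Cyp1a2: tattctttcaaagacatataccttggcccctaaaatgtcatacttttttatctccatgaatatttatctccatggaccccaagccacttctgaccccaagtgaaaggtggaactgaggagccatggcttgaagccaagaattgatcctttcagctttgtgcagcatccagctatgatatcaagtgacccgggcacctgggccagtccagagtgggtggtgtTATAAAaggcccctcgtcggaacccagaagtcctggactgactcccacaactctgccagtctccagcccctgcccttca

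In these windows 4 motifs were searched on both strands. TATAAA is the box that often lies just before a start, GCGTG is the core that Ahr and Arnt bind, and GTTAAT is part of a site for Hnf1 factors. The other one is the direct repeat with 1 base between its copies (DR1), which Hnf4a and Ppara are known to bind. Cyp2f2 held 0 of them, and Cyp1a2 held 1 TATAAA, at -29 from the start. RefSeq windows were found for 62 of the 75 members (69 windows). Each motif was counted by itself, whether or not it overlapped another. TATAAA was in 57.1% of the 35 windows of hepatocyte members, in 6.25% of the 16 of members placed widely or outside liver and in 13.6% of all 32851 promoter windows. GTTAAT was in 20% of the hepatocyte members' windows, in 6.25% of those of the widely placed members and in 7.1% of all. GCGTG had the opposite order, at 8.57% for hepatocyte members, 50% for widely placed members and 32.4% of all windows. The direct repeat was in 0% of the members' windows and 0.0396% of all. A match is a run of letters, not evidence of binding.

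Genes that work with the members were counted for context. Of 11 electron donors and haem or haem-binding genes, 0 differed by over 2-fold in either direction. Por had 58.35 TPM in replicate 2, against 50.55 TPM in replicate 1. The 4 highest were the mitochondrial donor Fdx1 (545.63 TPM in replicate 2, 579.24 TPM in replicate 1), the haem synthesis enzyme Alas1 (521.35 TPM in replicate 2, 352.89 TPM in replicate 1), Fdxr (163.21 TPM in replicate 2, 157.7 TPM in replicate 1) and Cyb5a (93.35 TPM in replicate 2, 66.9 TPM in replicate 1). Of 12 regulators that averaged 1 TPM or more, 4 were over 2-fold higher in replicate 2, beside 3.37% of all genes; 3 of the 4 passed that mean only through replicate 2. They were Hnf4a (7.57 TPM in replicate 2, 0.53 TPM in replicate 1), Nr1i3 (3.34 TPM in replicate 2, 0.22 TPM in replicate 1), Onecut1 (2.04 TPM in replicate 2, 0.05 TPM in replicate 1) and Ppargc1a (8.43 TPM in replicate 2, 4.01 TPM in replicate 1). Cebpa, Ppara, Arnt and Rxra, the 4 highest, lay within 2-fold, as did Ahr (2.35 TPM in replicate 2, 2.22 TPM in replicate 1). Nr1i3 was lower in replicate 1 (18 counts), where its liver target Cyp2b10 was higher. A link between the 2 levels was not tested.

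Of 21 conjugating enzymes and transporters that averaged 1 TPM or more, 7 were over 2-fold higher in replicate 2, beside 3.37% of all genes. Gsta3, Ugt1a1 and Fmo5 reached 1 TPM in both libraries, and the other 4 (Ugt2b34, Ugt2b1, Abcc2 and Sult1d1) passed the mean only through replicate 2. The 4 highest, Ces1d, Abcb1b, Gstp1 and Fmo1, lay within 2-fold, with Ces1d at 157.74 TPM in replicate 2, against 169.61 TPM in replicate 1. Of 13 P450 genes of other families with that mean, 1 was over 2-fold higher in replicate 2, beside the same 3.37% of all genes. It was the bile acid enzyme Cyp8b1 (2.88 TPM in replicate 2, 0.43 TPM in replicate 1), which also passed only through replicate 2. The steroid hydroxylases Cyp21a1 (1032.36 TPM in replicate 2, 972.64 TPM in replicate 1), Cyp11a1 (834.67 TPM in replicate 2, 762.43 TPM in replicate 1) and Cyp11b1 (614.8 TPM in replicate 2, 649.5 TPM in replicate 1) stood above every member of families 1 to 4 in both libraries. The next highest, Cyp11b2, did not, with 36.06 TPM in replicate 2 and 39.09 TPM in replicate 1. It lay below Cyp2f2 in both libraries and below Cyp2e1 and Cyp3a11 in replicate 2.

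Close paralogs could share reads, so each gene's sequence was cut into words of 31 bases and compared with all other transcripts. Over the 37 members a median of 88.3% of the words were found in no other gene, 4 genes (Cyp2f2, Cyp2c70, Cyp1b1 and Cyp2c23) had 100%, and 6 had under 50%. These 6 were Cyp2c40 (27.4%), Cyp2c69 (35.1%), Cyp4a32 (37.2%), Cyp2c68 (38.0%), Cyp2a5 (45.4%) and Cyp2d10 (49.8%), whose single values are uncertain; their closest genes were other members of the same subfamily. A second quantification from the authors, by kallisto, gave higher TPM than RSEM by a median of 1.52-fold over 8310 protein-coding genes. Relative to that median, 0 of the 37 members differed by over 1.5-fold. The members farthest from it were Cyp2c40 (0.57 higher on the log2 scale) and Cyp3a44 (-0.44). The library that was higher was the same in 35 of 37; the exceptions were Cyp2d22 (17.2 TPM in replicate 2, 15.2 TPM in replicate 1 by kallisto) and Cyp4f16 (4.82 TPM in replicate 2, 4.66 TPM in replicate 1 by kallisto), which lay within 2-fold in both.

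**Figure D4:**
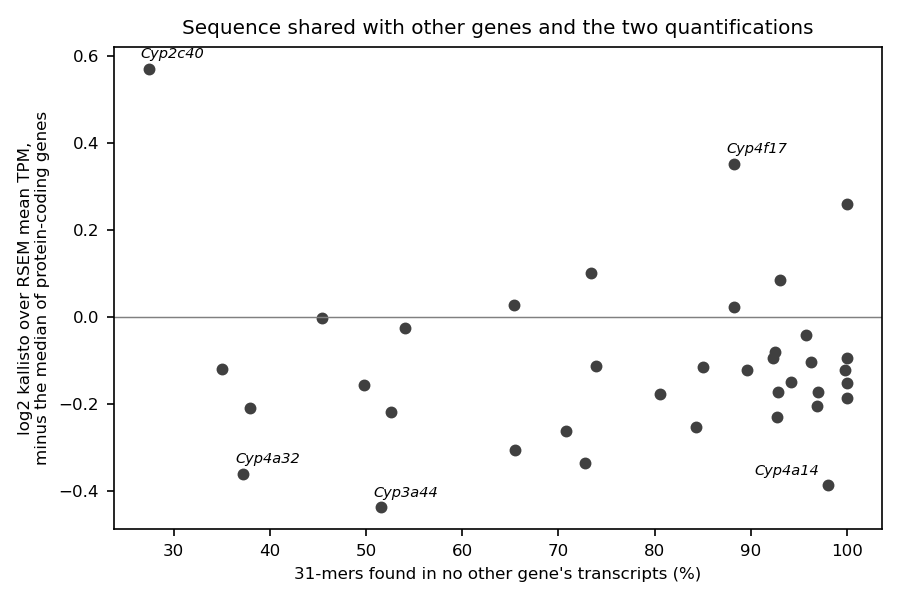
Log2 ratio of kallisto over RSEM mean TPM, minus the median of protein-coding genes, against the share (%) of 31-base words found in no other gene's transcripts, 1 point for each of the 37 members. Cyp2c40, with 27.4% of its words its own, lies highest at 0.57, and Cyp3a44 lowest at -0.44.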

How the data were processed

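Expected counts and TPM per gene and transcript were deposited by the authors for each library, with the mm10 build and GENCODE release M21 as the list of deposited files has it. RSEM is the program whose columns these are, per the file headers. The credibility bounds of TPM, a signal with no fixed total, and posterior mean TPM are columns the authors deposited too. Estimated counts and TPM of kallisto were deposited by the authors per transcript and summed here to genes. No aligner or version is named: these are not given in the sources used.

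Members and lists were chosen with earlier results of these data known. The ratio is TPM in replicate 2 over replicate 1, with 0 counts taken as 3 counts in that library, and no ratio where a library has 0 and neither has over 3. Ratios were counted where the mean reached 1 TPM, at a fold of 2. With 1 group and 2 libraries no test was made. Count ratios per library total used expected counts rounded to whole numbers. Their intervals are exact and cover counting error only. Named are all members with a mean of at least 5 TPM and the highest member of each subfamily. The 12 largest ratios and the 8 largest kallisto to RSEM ratios were added, which gave 36 in all. Also named are the 4 highest genes of the electron donor, regulator, conjugating enzyme and other P450 lists. Others named were chosen after their values were seen. Of the lists, Fdx2 and Cyp5a1 were not found under those symbols. Markers not given beside a result differed as follows. Chromaffin cell, endothelium, fibroblast and capsule, macrophage and pancreas markers had 0 genes over 2-fold apart among those with a mean of at least 1 TPM. The intestine list had 1, Fabp2.

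Protein sequences were not used here; 31-base words of GENCODE transcripts stood in for the planned protein identity. The 31-base measure, the paralog pairs shown, the use of the longest coding transcript with the cysteine pattern, the limit of 1 TPM in replicate 1 and the rule on ratios of low counts were chosen after the values were seen. The printed sequences are of the reference strain, not of the hybrid's other parent. Programs were scipy 1.17.1, matplotlib 3.10.9, pandas 2.3.3 and numpy 2.4.6 in Python 3.11.15, and edgeR 4.0.16 in R 4.3.3 for TMM factors alone, on rounded expected counts. Scripts were tested on simulated data.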

Additional observations from a re-analysis of the deposited data

How the results depend on the processing

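The count of members over 2-fold higher in replicate 2 was 26 of 37. By kallisto, posterior mean TPM, scaling to protein-coding genes, TMM, spike-ins, log2(TPM + 1) and folds of 1.5 and 4 it was 25 to 31. Those settings covered 37 to 47 members, and 2.37% to 5.09% of all genes passed. With no minimum TPM the count was 38 of 61, against 5.59% of all genes. It was 8 of 15 at a mean of at least 5 TPM (2.27% of all genes) and 5 of 17 at 1 TPM in replicate 1 (1.6%). Of the 8, Cyp2e1 had 22.11 TPM in replicate 1. The others had 2.1 TPM or less there, so they reached the mean of 5 TPM only through replicate 2 and had to differ. The limit on replicate 1 removes the 21 members that reached the mean only through replicate 2. The count higher in replicate 1 was 1 of 37, against 2.52% of all genes. It was 2 of 47 after scaling to protein-coding genes (4.42% of all genes) and 4 of 61 with no minimum (7.1%). It was 2 of 17 at 1 TPM in replicate 1 (3.28%) and 3 of 37 at a fold of 1.5 (5.9%). The median log2 ratio (3.61) was 3.05 by posterior mean TPM, 2.81 at a mean of 5 TPM, 2.78 with no minimum, 1.92 as log2(TPM + 1) and 0.041 at 1 TPM in replicate 1. Members detected in both libraries were 16, against 54.2% of all genes. They numbered 33 after scaling to protein-coding genes (62.3% of all genes), 45 at 0.1 TPM (67.6%) and 5 at 5 TPM (35.8%). Leaving out a library gave 17 in replicate 1 alone (56.6%) and 41 in replicate 2 alone (56.1%). Scaling to protein-coding genes raises every level by construction and gave mean family sums of 48.5, 1522, 113.3 and 144.5 TPM for families 1, 2, 3 and 4, against 13.4, 421.3, 31.5 and 39.9 TPM; family 4 was 58.1 TPM by kallisto. Without a library the sums were 9.43 to 17.4, 260.5 to 582, 4.02 to 58.9 and 34.1 to 45.8 TPM. The median log2 ratio was above 0 under every setting run, but at 1 TPM in replicate 1 it lay near 0. There it is the ratio of Cyp4f17, whose bounds overlapped. Spike-in scaling shifts each log2 ratio by -0.084, and no scaling was combined with that limit. No paired analysis was possible because there is 1 group. Ratios of genes with a few counts in replicate 1 are limited by depth.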
